A study of Mus musculus with 7 samples.

Results

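The peak lists of active histone marks in mouse cells were examined at Sox9, along the 1 Mb downstream of its transcription start site (TSS), and at the neighbouring genes Slc39a11, Kcnj2 and Kcnj16. Members were chosen by position: every peak between the Sox9 TSS and 1 Mb downstream on chromosome 11, every peak reaching within 1 kb of the Sox9 TSS, and every peak at Kcnj2 or Kcnj16 with 50 kb on each side. These held 174 of the 190499 peaks of all 6 lists. By list they were 22 of 25597 and 27 of 20453 for chondrocyte H3K27ac replicates 1 and 2, 30 of 33392 for WT, 16 of 25230 for E160Δ/Δ E308Δ/Δ, 11 of 19458 for fibroblasts and 68 of 66369 for chondrocyte H3K4me2. The 1.5 Mb upstream of Sox9, where the deleted enhancers E160 and E308 lie, was left out.

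Primary chondrocytes came from the rib cartilage of newborn mice and were used within 2 passages, and primary dermal fibroblasts came from newborn dorsal skin and served as the negative control. The WT and E160Δ/Δ E308Δ/Δ chondrocytes came from littermates. The E160Δ/Δ E308Δ/Δ mice lacked both enhancers on both alleles after CRISPR/Cas9 editing of C57BL/6J embryos and were obtained with WT mice by intercrossing heterozygotes. The strain of the other mice, the number of animals and any pooling are not given in the sources used here. Chondrocyte H3K27ac had 2 replicates and every other group 1 library, so the other groups cannot be compared against a spread between libraries and p-values are left out. An input library was not analysed here, and the depth of all libraries is unknown, since the lists give peaks and no reads.

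Sox9 encodes the transcription factor that directs chondrocyte differentiation and switches on cartilage matrix genes. It lies between long gene-poor stretches that hold distant enhancers, with the potassium channel genes Kcnj2 and Kcnj16 at the far upstream end and the zinc transporter gene Slc39a11 downstream. H3K27ac is found at active promoters and enhancers, whereas H3K4me2 is found at promoters and enhancers that may or may not be acetylated.

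The cell labels were compared with 15 chondrocyte and 11 fibroblast marker promoters. A chondrocyte marker promoter held a peak at 10 to 12 of the 15 in the 5 chondrocyte lists and at 0 in fibroblasts. These were 66.7% to 80.0% in the chondrocyte H3K27ac lists, beside 43.1% to 50.01% of all genes. For H3K4me2 the share was 73.3%, near the 66.3% of all genes, and for fibroblasts 0%, beside 47.5%. Replicate 1 had no peak at Sox9, Col2a1, Col11a1 or Sox6, which the other chondrocyte H3K27ac lists marked, so results that rest on it are also given from WT or replicate 2. The chondrocyte H3K4me2 list, too, had no peak at the Col2a1, Col11a1 and Sox6 promoters. The fibroblast list marked 6 of 11 fibroblast promoters but not Col1a1, Col1a2 or Col3a1, and the 4 chondrocyte H3K27ac lists marked 5 to 10 of the 11, Col1a1 included. The fibroblast share was 54.5%, near the 47.5% of all genes, and the chondrocyte shares were 45.5% to 90.9%. The fibroblast markers thus did not set the fibroblast list apart. The part of fibroblasts among the chondrocytes in the results was not tested. Of 4 osteoblast promoters, 1 or 2 were marked in each chondrocyte H3K27ac list (25% to 50%), beside 43.1% to 50.01% of all genes. None of the muscle, endothelial, leukocyte and keratinocyte markers was marked in any of these lists. The H3K4me2 list marked 1 of 3 muscle promoters (Myf5) and 1 of 3 endothelial promoters (Tek), and the fibroblast list marked Tek. These shares were 33.3%, beside 66.3% (H3K4me2) and 47.5% (fibroblasts) of all genes. E160 and E308 each held a WT peak, and the E160Δ/Δ E308Δ/Δ list had none at either. The replicate 1, H3K4me2 and fibroblast lists also held 1 peak at each enhancer. Replicate 2 was given on the GRCm38 build and the other lists on mm9, so replicate 2 was compared by distance from a gene start.

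At the Sox9 promoter, 5 of the 6 lists held a peak within 1 kb of the TSS (chr11:112643538, mm9, + strand), and replicate 1 held none. Among all 18089 protein-coding genes, the share of promoters marked was 44.2% in replicate 1, 43.1% in replicate 2, 50.01% in WT, 47.1% in E160Δ/Δ E308Δ/Δ, 47.5% in fibroblasts and 66.3% for H3K4me2. Each peak was placed by its score within its own list, where the top 1% holds the highest scores. The Sox9 promoter peak was in the top 7.27% of replicate 2, 3.38% of WT, 4.99% of E160Δ/Δ E308Δ/Δ, 25.5% of fibroblasts and 43.1% of H3K4me2. The 3 chondrocyte H3K27ac peaks thus ranked highest, the fibroblast peak lower, and H3K4me2 lowest within its own list.

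The WT peak covered the whole Sox9 gene, and the fibroblast peak its start alone. These lists differ in format and perhaps in caller, which cannot be told apart from cell type here. Chondrocyte replicate 1, in the format of the fibroblast list, had no Sox9 peak. The fibroblast list itself lacked Col1a1, Col1a2 and Col3a1 promoter peaks. In WT the peak ran from -2185 to +6062 bp relative to the TSS, past the end of the 5537 bp gene, and it was among the 76 widest of the list's peaks (0.228%). In E160Δ/Δ E308Δ/Δ it ran from -2070 to +4541 bp and in replicate 2 from -1802 to +3786 bp. In fibroblasts it ran from -143 to +1154 bp. Peaks covered 100% of the gene body in WT, 92.2% in E160Δ/Δ E308Δ/Δ, 72.0% in replicate 2, 20.8% in fibroblasts and 0% in replicate 1. Since replicate 1 also lacked peaks at Col2a1, Col11a1 and Sox6, a missing peak there says that none is in the list, and whether the mark itself was absent was not tested. The WT and deletion lists also held the summit at nearly the same place, 220 and 255 bp past the TSS, and replicate 2 at 334 bp.

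H3K4me2 lay on both sides of the Sox9 start rather than over it. One peak ran from -2895 to -182 bp, and the next covered most of the rest of the gene, so that 74.7% of the gene body was under H3K4me2. Of all marked promoters in that list, 70.7% had the TSS itself covered. The upstream H3K4me2 peak and the WT H3K27ac peak also covered the start of the lincRNA BC006965, which lies 248 bp upstream of the Sox9 TSS on the other strand, and peaks here cannot assign a mark to either gene.

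To see whether the loss of width at Sox9 was shared by other broad domains, the 368 WT peaks of at least 5 kb were examined. The E160Δ/Δ E308Δ/Δ list covered 89.1% of the Sox9 domain and a median of 88.4% of these domains. Fibroblast peaks covered 15.7% of it against a median of 45.3%, and 24.7% of the domains were covered as little. Replicate 1 covered 0% against a median of 59.5%, and 13.3% of the domains were covered as little. H3K4me2 covered 80.8% against 57.7%.

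**Figure D1:**
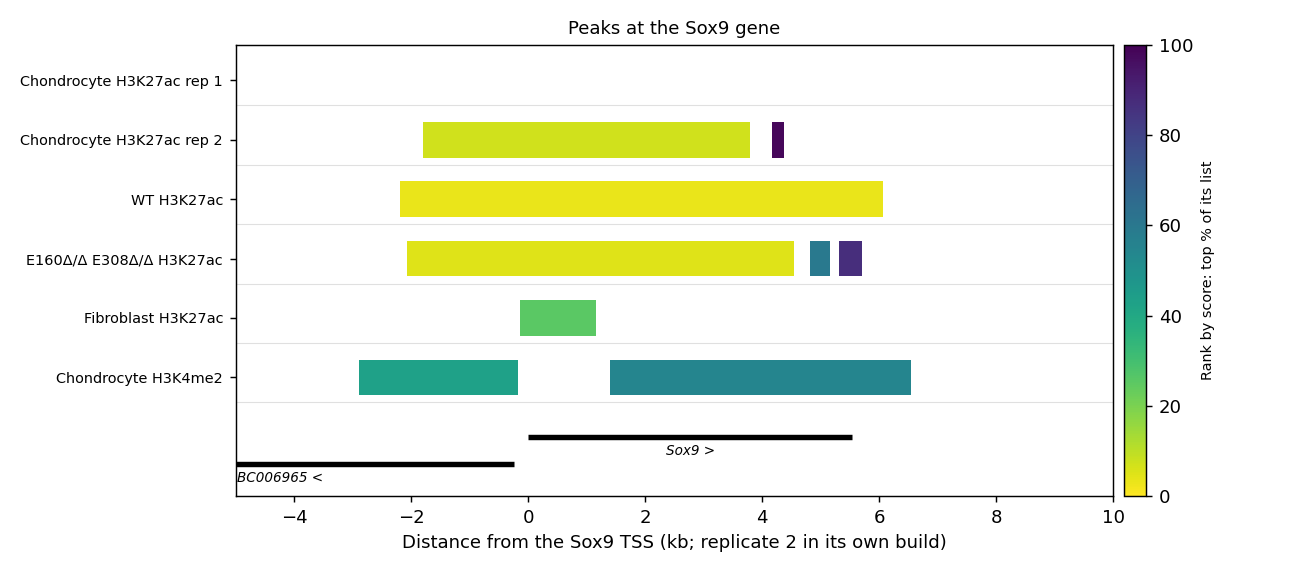
Peaks at the Sox9 gene in the 6 lists, by distance from the TSS in kb, each drawn to scale and coloured by its rank in its own list (top % by score); black bars are the annotated genes with their direction. The WT peak spans the whole gene, the fibroblast peak ends 1154 bp past the TSS, replicate 1 has none, and H3K4me2 leaves a gap over the TSS.

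Of 18 Sox family promoters placed on both builds, Sox9 included, replicate 1 marked 2 (Sox4 and Sox12), replicate 2 and WT 7 each, E160Δ/Δ E308Δ/Δ 6, fibroblasts 7 and H3K4me2 15. Sox6, a partner of Sox9 in cartilage, was marked with H3K27ac in replicate 2, WT and E160Δ/Δ E308Δ/Δ and not in fibroblasts or replicate 1. Sox4, Sox11, Sox12 and Sox13 were marked in WT, E160Δ/Δ E308Δ/Δ, replicate 2 and fibroblasts alike. In total, 11.1% of Sox promoters carried a peak in replicate 1, beside 44.2% of all genes, and 33.3% to 38.9% in the other H3K27ac lists, beside 43.1% to 50.01%. The H3K4me2 list marked 83.3% of them, beside 66.3% of all genes.

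Kcnj2 encodes the inward rectifier potassium channel Kir2.1 and lies 1716 kb upstream of Sox9. None of the 4 chondrocyte H3K27ac lists held a peak at its promoter, its gene body or within 50 kb. The chondrocyte H3K4me2 list held a 2508 bp peak there (chr11:110926061-110928568, mm9), in the top 0.0301% of that list by score. The fibroblast list held an H3K27ac peak of 481 bp (chr11:110927411-110927891) over the TSS, in the top 83.1% of its list. Kcnj2 thus had one of the highest-scoring H3K4me2 peaks of the list and no acetylation peak in chondrocytes.

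The 250 bases before the Kcnj2 start are shown because this promoter was marked in some lists and not in others (RefSeq, GRCm38, chr11:111065914-111066163, + strand). Capitals mark matches to any of 7 motifs searched on both strands, which were TATAAA (the core promoter box), CCAAT (the binding site of NF-Y), GGGCGG (the binding site of SP1), AACAAT (the core of the SOX site), TGANTCA (the AP-1 site), TGTGGT (the RUNX site) and GGAATG (the TEAD site). None of the matches shown overlapped another.
Kcnj2 promoter: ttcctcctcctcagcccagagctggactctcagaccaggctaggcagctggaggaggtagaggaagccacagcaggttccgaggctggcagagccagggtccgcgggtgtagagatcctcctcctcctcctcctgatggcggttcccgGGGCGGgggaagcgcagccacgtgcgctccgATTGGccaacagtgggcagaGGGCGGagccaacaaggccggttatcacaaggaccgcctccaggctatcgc

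The stretch held 2 GGGCGG matches and 1 CCAAT match, the latter on the other strand and printed as ATTGG. Of the 32851 RefSeq promoters of this length, 32.7% held GGGCGG and 33.8% held CCAAT. Its GC content was 65.6%, where the median over those promoters was 52.4% and the upper quartile 61.2%. No match to TATAAA (12.4% of promoters), AACAAT (9.42%), TGANTCA (6.75%), TGTGGT (14.0%) or GGAATG (12.6%) was present in this window.

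Kcnj16, which encodes the channel subunit Kir5.1, lies 1814 kb upstream of Sox9. It had no peak within 1 kb of its TSS or in its 59.9 kb gene body in any of the 6 lists, and none at its other annotated starts. The nearest peak was one of H3K4me2, 758 bp wide (chr11:110822669-110823426, mm9), which was intergenic, upstream of the gene and in the top 59.7% of its list. No other peak lay within 50 kb of either channel gene.

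Among all 15 inward rectifier genes of the Kcnj family, the 4 chondrocyte H3K27ac lists marked 0 promoters, beside 43.1% to 50.01% of all genes. The fibroblast list marked Kcnj2 alone (6.67%). H3K4me2 marked 9 (60.0%, beside 66.3% of all genes), which were Kcnj2, Kcnj3, Kcnj4, Kcnj5, Kcnj6, Kcnj8, Kcnj10, Kcnj11 and Kcnj12.

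Slc39a11 encodes the zinc transporter ZIP11 and is transcribed towards Sox9 from a start 868 kb downstream of the Sox9 TSS. Its promoter was marked in all 6 lists, and the same peaks lay within 1 kb of the start of Cog1, which encodes a Golgi complex subunit and begins 910 bp away on the other strand. The peak was in the top 23.8% of replicate 1, 15.9% of replicate 2, 3.23% of WT, 3.46% of E160Δ/Δ E308Δ/Δ, 9.78% of fibroblasts and 14.9% of H3K4me2. The acetylation peak was 1689 bp wide in WT, 1607 bp in fibroblasts, 935 bp in replicate 1, 926 bp in E160Δ/Δ E308Δ/Δ and 807 bp in replicate 2. Unlike Sox9, Slc39a11 had a fibroblast peak about as wide as the WT peak.

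The other genes of the ZIP family were counted in the same way. Of its 14 genes, Slc39a11 included, 9, 8, 9, 9, 10 and 10 were marked in replicate 1, replicate 2, WT, E160Δ/Δ E308Δ/Δ, fibroblasts and H3K4me2, or 57.1% to 71.4%. The shares of all genes in the same lists were 44.2%, 43.1%, 50.01%, 47.1%, 47.5% and 66.3%. Slc39a2, Slc39a4, Slc39a5 and Slc39a12 had no promoter peak in any list. Slc39a1, Slc39a3, Slc39a6, Slc39a7, Slc39a9, Slc39a11, Slc39a13 and Slc39a14 were marked in all 6 lists. Slc39a8 was marked with H3K27ac in fibroblasts and in none of the chondrocyte H3K27ac lists.

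Slc39a11 has an inner annotated start, 784 kb from the Sox9 TSS, which was marked in 3 of the 5 mm9 lists. The peak was in the top 12.3% for H3K4me2, 78.0% in WT and 91.3% in fibroblasts, and replicate 1 and E160Δ/Δ E308Δ/Δ held none. The acetylation peaks were 259 bp wide in WT and 399 bp in fibroblasts, and the H3K4me2 region 2068 bp. This start thus carried H3K4me2 with weak or no acetylation peaks. The 250 bases before it are shown for comparison with Kcnj2 (RefSeq, GRCm38, chr11:113565816-113566065, - strand).
Slc39a11 inner start: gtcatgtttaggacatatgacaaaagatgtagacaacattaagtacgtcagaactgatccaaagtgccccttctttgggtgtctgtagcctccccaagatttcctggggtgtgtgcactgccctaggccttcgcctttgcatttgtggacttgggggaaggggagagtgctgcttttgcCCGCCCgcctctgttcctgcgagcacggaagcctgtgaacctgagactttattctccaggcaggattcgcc
This window held 1 GGGCGG match, on the other strand, and its GC content was 52.8%, near the median of all promoters.

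The other coding promoters of the interval fell into 3 kinds. D11Wsu99e and D11Wsu47e, which share a start region at +901 kb, and Cdc42ep4 at +968 kb, which encodes an effector of the small GTPase Cdc42, were marked in all 6 lists. The peak shared by D11Wsu99e and D11Wsu47e was in the top 1.29% of replicate 1, 5.56% of replicate 2, 7.16% of WT, 6.52% of E160Δ/Δ E308Δ/Δ, 8.41% of fibroblasts and 27.5% of H3K4me2. Sstr2, a somatostatin receptor gene at +837 kb, had no acetylation peak in any list and a 2463 bp H3K4me2 peak in the top 1.08%. Cpsf4l had no peak in any list.

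**Figure D2:**
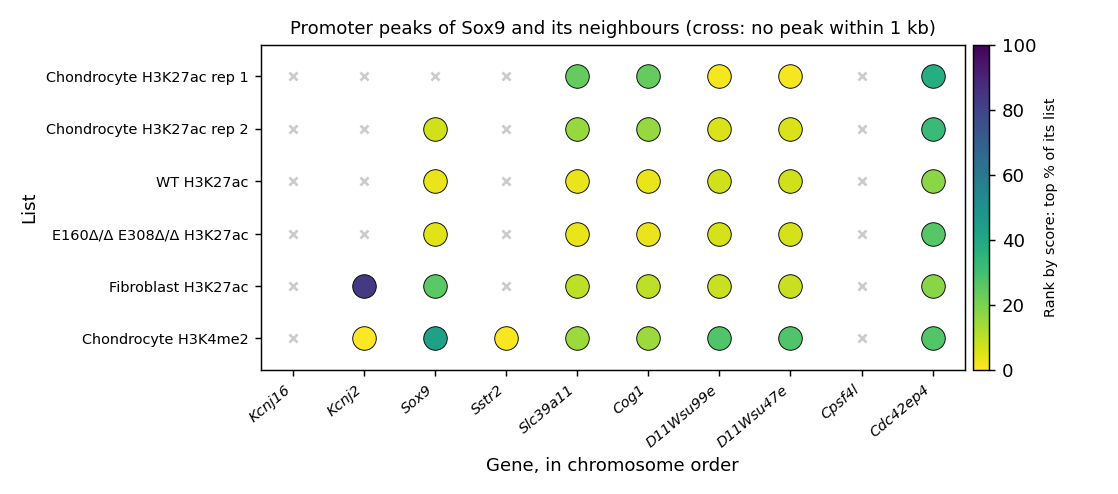
Promoter peaks of the 4 members and 6 neighbouring genes in chromosome order (columns) in the 6 lists (rows); a circle is a peak within 1 kb of the TSS, coloured by its rank in its list (top % by score), and a cross is no peak. Kcnj2 and Sstr2 carry H3K4me2 in the top 0.0301% and 1.08% without chondrocyte H3K27ac, and Slc39a11 is marked in every list.

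The 1 Mb downstream of Sox9 held more peaks than the genome average in every list. There were 22 and 27 H3K27ac peaks in chondrocyte replicates 1 and 2 (24.5 ± 3.54, SD, n = 2), 30 in WT, 16 in E160Δ/Δ E308Δ/Δ and 10 in fibroblasts, and 65 H3K4me2 peaks. With equal numbers of the highest-scoring peaks from each list, the counts were 21 for the mean of the replicates, 11 in WT, 12 in E160Δ/Δ E308Δ/Δ, 10 in fibroblasts and 14 for H3K4me2, so that WT no longer held more than E160Δ/Δ E308Δ/Δ or the replicates. The genome-wide densities of the full lists were 9.69, 7.75, 12.6, 9.55, 7.37 and 25.1 peaks per Mb. The ratio was therefore 2.27 and 3.48 in the replicates, 2.37 in WT, 1.67 in E160Δ/Δ E308Δ/Δ, 1.36 in fibroblasts and 2.59 for H3K4me2. Peaks covered 2.49%, 2.08%, 2.69%, 1.55%, 1.20% and 9.45% of the interval in that order. Over the genome, the same lists covered 1.17%, 0.695%, 1.36%, 0.894%, 0.852% and 3.50%.

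Compared with the 1 Mb downstream of every other coding gene, these counts were not extreme. The median gene had 14, 11, 18, 14 and 11 H3K27ac peaks in replicate 1, replicate 2, WT, E160Δ/Δ E308Δ/Δ and fibroblasts, and 37 H3K4me2 peaks. Sox9 had as many as or more than 73.2%, 83.9%, 73.5%, 57.2%, 46.7% and 91.7% of 18089 genes.

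Acetylation started far from the gene. Between 10 and 300 kb downstream, a stretch chosen after its values were seen, there was no H3K27ac peak in replicate 1, WT or E160Δ/Δ E308Δ/Δ and 1 each in replicate 2 and fibroblasts. The median gene had 3 to 5, and 19.4% to 36.9% of genes had as few, depending on the list. The same stretch held 16 H3K4me2 peaks, where the median gene had 11. Beyond the gene, the first peak began at 302 kb in replicate 1, 304 kb in WT and 350 kb in E160Δ/Δ E308Δ/Δ. It began at 156 kb in replicate 2, with a 335 bp peak in the top 95.2%, at 233 kb in fibroblasts and at 16.6 kb for H3K4me2.

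**Figure D3:**
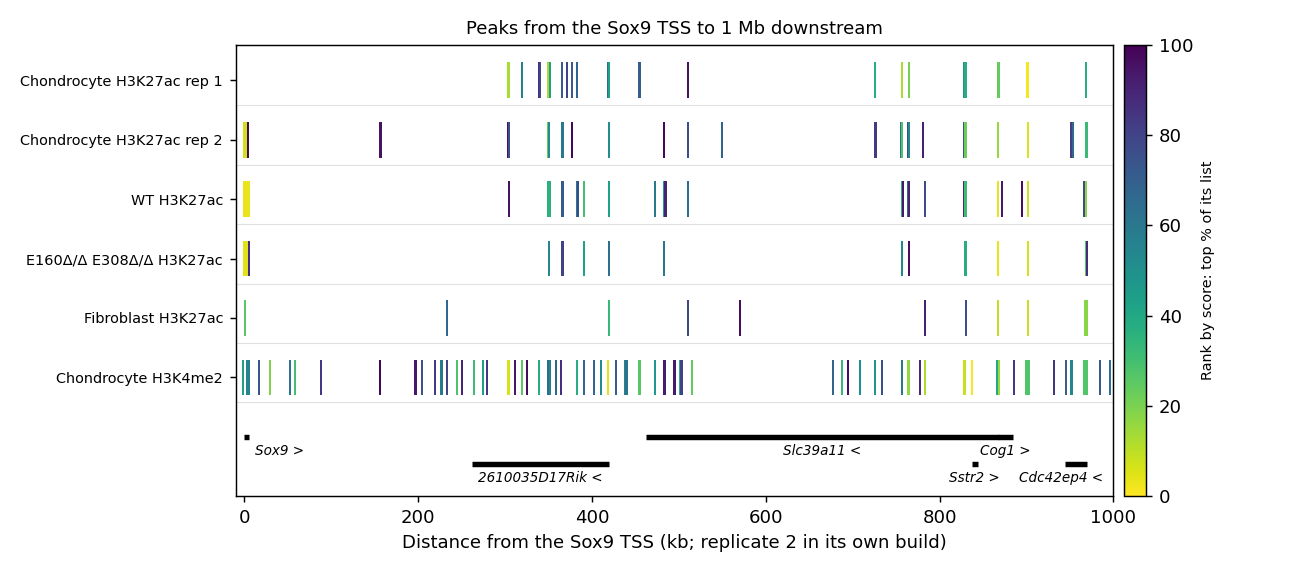
Peaks from 10 kb upstream to 1 Mb downstream of the Sox9 TSS in the 6 lists, by distance in kb, drawn at least 2.5 kb wide so that narrow peaks can be seen and coloured by rank in the list (top % by score), with the main genes below. Between 10 and 300 kb, H3K4me2 has 16 peaks and the H3K27ac lists 0 or 1, and the fibroblast list has none from 300 to 400 kb.

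Among the 100 kb bins of the interval, that from 300 to 400 kb held the most acetylation peaks in each chondrocyte list. It was picked out by these counts, and no count of such bins over the genome was made. Neighbouring peaks were counted singly, such as 2 WT peaks at +304 kb in the top 93.7% and 95.4%. Replicates 1 and 2 held 10 and 7 H3K27ac peaks there, WT held 9, E160Δ/Δ E308Δ/Δ held 4, and fibroblasts held 0. H3K4me2 had 12. At 600 to 700 kb no list held an H3K27ac peak and H3K4me2 held 3. The fibroblast peaks were spread over the interval with at most 2 per 100 kb.

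**Figure D4:**
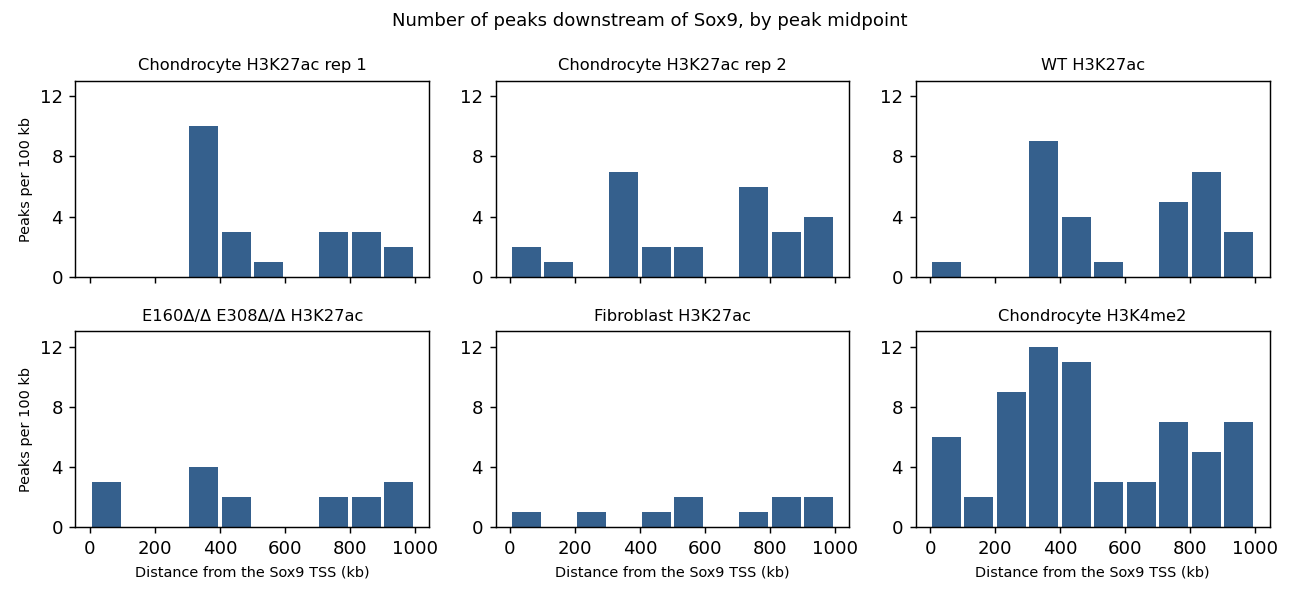
Number of peaks by midpoint in 100 kb bins downstream of the Sox9 TSS (x axis, kb; y axis, peaks per bin), 1 panel per list on a common scale. The 4 chondrocyte H3K27ac panels hold 10, 7, 9 and 4 peaks at 300 to 400 kb, and the fibroblast panel 0.

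Overlapping mm9 peaks merged into 76 regions. Of these, 9 held H3K27ac in all 4 chondrocyte lists, or 12 when replicate 1 was left out. H3K4me2 alone was found in 42, a fibroblast H3K27ac peak in 11, and a peak of every list in 5. These 5 were the promoter regions of Slc39a11 with Cog1, of D11Wsu99e with D11Wsu47e and of Cdc42ep4, the region at +419 kb and the region at +829 kb. Of 29 regions with H3K27ac in an mm9 chondrocyte list, 21 had no fibroblast peak and 8 had no H3K4me2. Merged regions were not counted over the genome, so these region counts show nothing particular to this stretch. By peak, 56.4% of the whole WT list had no fibroblast peak, and 74.7% of its peaks away from coding promoters had none.

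The chondrocyte regions between 304 and 419 kb lay in the lincRNA gene 2610035D17Rik. The region at +304 kb (chr11:112945633-112948997, mm9) was in the top 13.2% of replicate 1 with a peak of 3315 bp, 76.3% of replicate 2, 93.7% of WT and 6.01% of H3K4me2, and lacked one in fibroblasts and in E160Δ/Δ E308Δ/Δ. The neighbouring regions at +350 kb (chr11:112992722-112994005) and +351 kb (chr11:112994147-112995754) had peaks in all 4 chondrocyte H3K27ac lists and none in fibroblasts. At +350 kb replicate 1 ranked in the top 12.6%, replicate 2 in the top 23.5%, WT in the top 36.0% and E160Δ/Δ E308Δ/Δ in the top 45.4%, with H3K4me2 at 64.5%. Of the lincRNA regions with H3K27ac in all 4 chondrocyte lists, that at +350 kb ranked highest in each list, tied with +351 kb in WT. The region at +351 kb was in the top 43.0% of replicate 1 and 53.7% of E160Δ/Δ E308Δ/Δ.

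Weaker intronic regions followed. The region at +364 kb was in the top 70.9% of replicate 1, 57.0% of replicate 2 and 59.8% of WT, without a peak in E160Δ/Δ E308Δ/Δ. The region at +366 kb was in the top 72.4% of WT and 81.0% of E160Δ/Δ E308Δ/Δ, without one in replicate 1 or H3K4me2, and the replicate 2 peaks nearby fall within 1 kb of both. The region at +383 kb was in the top 69.1% of replicate 1 and 59.8% of WT, without one in E160Δ/Δ E308Δ/Δ or replicate 2. None of the 3 had a fibroblast peak.

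Both annotated starts of the lincRNA were marked. The start near +391 kb was in the top 29.6% of WT, 43.1% of E160Δ/Δ E308Δ/Δ and 67.1% of H3K4me2 and had no peak in either chondrocyte replicate or fibroblasts. The start near +419 kb (chr11:113061474-113063285) was in the top 42.7% of replicate 1, 51.5% of replicate 2, 43.3% of WT, 63.4% of E160Δ/Δ E308Δ/Δ, 33.0% of fibroblasts and 4.68% of H3K4me2. This was the region of the lincRNA with a peak in every list, fibroblasts included.

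In the 405 kb body of Slc39a11 there were 7, 12, 13, 5, 5 and 21 peaks in replicate 1, replicate 2, WT, E160Δ/Δ E308Δ/Δ, fibroblasts and H3K4me2. The region at +829 kb (chr11:113470803-113474281), intronic, was in the top 37.8% of replicate 1, 22.4% of replicate 2, 31.1% of WT, 37.6% of E160Δ/Δ E308Δ/Δ, 77.0% of fibroblasts and 8.97% of H3K4me2. The regions at +757 kb (chr11:113398977-113401246) and +764 kb (chr11:113407052-113408815) were marked in the 5 chondrocyte lists and not in fibroblasts. At +757 kb replicate 1 ranked in the top 13.04%, replicate 2 in the top 27.6%, WT in the top 36.0%, E160Δ/Δ E308Δ/Δ in the top 53.7% and H3K4me2 in the top 59.7%. At +764 kb the ranks were the top 20.3%, 54.1%, 67.6%, 96.4% and 16.2% in the same order.

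The other named regions of the gene were each absent from at least 2 lists. The region at +483 kb was in the top 43.3% of WT, 59.7% of E160Δ/Δ E308Δ/Δ, 98.1% of replicate 2 and 92.0% of H3K4me2, without replicate 1 or fibroblasts. The region at +510 kb was in the top 95.7% of replicate 1, 76.3% of replicate 2, 63.7% of WT and 78.7% of fibroblasts, without E160Δ/Δ E308Δ/Δ or H3K4me2. The fibroblast list had 3 regions without a chondrocyte H3K27ac peak of the same build. They were the Kcnj2 promoter, an intergenic peak of 284 bp at +233 kb in the top 67.6%, and a Slc39a11 intronic peak of 361 bp at +570 kb in the top 96.5%.

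The sequence round the WT summit is shown for 3 regions away from coding promoters, each 200 bases on the + strand of mm9. The regions at +829 and +419 kb had a peak in all 6 lists, and that at +350 kb was taken by WT score and then −log10 q from the 4 regions with a peak in 5. Their positions were chr11:113473109-113473308 at +829 kb, chr11:113062784-113062983 at +419 kb and chr11:112993667-112993866 at +350 kb, and capitals mark the same 7 motifs.
region +829 kb: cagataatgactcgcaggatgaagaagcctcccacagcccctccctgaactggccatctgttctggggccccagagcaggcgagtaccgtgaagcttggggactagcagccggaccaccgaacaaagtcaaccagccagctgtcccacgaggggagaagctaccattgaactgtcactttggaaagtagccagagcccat
region +419 kb: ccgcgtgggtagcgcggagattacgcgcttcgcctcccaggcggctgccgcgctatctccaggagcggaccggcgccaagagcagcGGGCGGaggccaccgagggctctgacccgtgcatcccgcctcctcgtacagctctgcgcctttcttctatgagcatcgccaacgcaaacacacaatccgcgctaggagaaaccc
region +350 kb: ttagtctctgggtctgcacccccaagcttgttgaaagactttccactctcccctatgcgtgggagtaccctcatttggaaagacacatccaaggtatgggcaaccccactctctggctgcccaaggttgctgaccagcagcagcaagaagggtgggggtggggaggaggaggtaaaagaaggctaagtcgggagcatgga

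The window at +419 kb, at the lincRNA start, held 1 GGGCGG match, which occurred in 5.86% of the windows at all 22939 WT peaks away from coding promoters. It held 24 CpG dinucleotides and 66.5% GC, where those windows had medians of 2 and 49.0%. The windows at +829 and +350 kb held no match to any of the 7 motifs, with 57.5% and 55.5% GC. In all windows, CCAAT occurred in 19.1%, TGTGGT in 13.8%, GGAATG in 11.6%, TATAAA in 8.87%, AACAAT in 7.84% and TGANTCA in 5.68%.

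Whether acetylation at these genes differed between chondrocytes and fibroblasts was asked by overlap. Of the 22 replicate 1 peaks at the members, 15 (68.2%; 95% CI, 45.1–86.1; exact binomial, Clopper-Pearson) had no fibroblast peak, where 48.3% of the whole list had none. The value from WT was 21 of 30 (70.0%, 50.6–85.3), where 56.4% of that list had none. Away from coding promoters, 15 of 19 replicate 1 peaks (78.9%, 54.4–93.9) lacked a fibroblast peak against 70.9% of all such peaks, and at coding promoters 0 of 3 lacked one against 11.5%. In WT it was 21 of 26 (80.8%, 60.6–93.4) against 74.7%, and at coding promoters 0 of 4 against 16.1%. For E160Δ/Δ E308Δ/Δ, 9 of 16 peaks (56.2%, 29.9–80.2) had no fibroblast partner, beside 45.7% of its list. In the other direction, 3 of 11 fibroblast peaks lacked a WT peak and 5 of 11 a replicate 1 peak, beside 26.2% and 37.6% of the fibroblast list. Of the 27 replicate 2 peaks, 7 (25.9%, 11.1–46.3) had a fibroblast peak within 1 kb at the same distance from a gene start, beside 60.3% of the whole list. This replicate 2 share was not split by coding promoter, although promoter and other peaks differed widely in the replicate 1 and WT lists. It therefore cannot tell a difference between cell types from a difference in the share of promoter peaks. Both the replicate 1 and the WT interval included the value of the whole list. All intervals given express counting error alone.

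Between the 2 chondrocyte replicates, 19 of the 27 replicate 2 peaks (70.4%, 49.8–86.2) had a replicate 1 peak at the same distance within 1 kb, beside 78.4% of the whole list, and 20 (74.1%, 53.7–88.9) had a WT peak, beside 86.7%. An H3K4me2 peak was found at 24 of the 27 (88.9%, 70.8–97.6), beside 84.3%. Of the WT peaks, 12 of 30 (40%) lacked a replicate 1 peak, beside 43.9% of the whole list. Of the replicate 1 peaks, 7 of 22 (31.8%) lacked a WT peak, beside 24.6% of the whole list. One region, at +371 kb, was found in replicate 1 and in no other list.

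By an overlap of at least 1 bp, H3K4me2 was present at 19 of the 22 replicate 1 peaks (86.4%, 65.1–97.1; 90.2% of the whole list), 24 of 30 WT peaks (80.0%, 61.4–92.3; 79.4%) and 15 of 16 E160Δ/Δ E308Δ/Δ peaks (93.8%, 69.8–99.8; 84.8%). With 50% reciprocal overlap the replicate 1 share was 27.3%. In the other direction, 45 of 68 H3K4me2 peaks (66.2%, 53.7–77.2) had no H3K27ac peak in replicate 1 or WT. The share of the whole list was 54.1%. From the higher-scoring 50% it was 10 of 26, where 38.5% of all such peaks had none. From the lower-scoring 50% it was 35 of 42, where 69.7% had none. With equal numbers of highest-scoring peaks the share was 40%. No whole-list share is given for this setting or for the reciprocal overlap. Of the fibroblast H3K27ac peaks, 7 of 11 (63.6%, 30.8–89.1; 81.7%) overlapped chondrocyte H3K4me2.

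The effect of deleting E160 and E308 on the far side of Sox9 was asked by comparing WT with E160Δ/Δ E308Δ/Δ chondrocytes. Of 30 WT peaks, 17 (56.7%, 37.4–74.5) had no E160Δ/Δ E308Δ/Δ peak, where 37.2% of the whole WT list had none. All 17 were weak, between the top 59.8% and 96.5% of WT and 194 to 935 bp wide, with a fold enrichment of 3.35 to 6.15 over the local background. Set against the whole deletion list, 0 of 11 peaks from the higher-scoring 50% of WT were without a partner, where 2.04% of all such peaks were. From the lower-scoring 50% it was 17 of 19, where 71.1% were. With peaks under 1 kb apart merged the share without a partner was 36.8% (7 of 19). With equal numbers of highest-scoring peaks from each list it was 0% (0 of 11). No whole-list share is given for these settings, and the 37.2% above belongs to the unmerged full lists. In the other direction, 0 of 16 E160Δ/Δ E308Δ/Δ peaks (upper limit 20.6%) lacked a WT peak, beside 1.12% of the whole list.

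At the 13 WT peaks kept in E160Δ/Δ E308Δ/Δ, the fold enrichment at the summit was lower in 12, as it was in 93.9% of the 20968 peaks shared across the genome. The median ratio of the deletion value to the WT value was 0.714 at the members and 0.698 over all shared peaks, with quartiles of 0.614 and 0.794. At the Sox9 promoter the fold enrichment was 39.2 (WT) and 27.4 (E160Δ/Δ E308Δ/Δ), a ratio of 0.699, and 50.4% of shared peaks had a lower one. The decrease at Sox9 was thus the size of that at the median peak of the lists.

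The other promoters lay on either side of the median. At Slc39a11 with Cog1 the fold enrichment was 39.6 (WT) and 30.3 (E160Δ/Δ E308Δ/Δ), a ratio of 0.765. At D11Wsu99e with D11Wsu47e it was 24.8 and 24.7, a ratio of 0.997, and 93.8% of shared peaks had a lower one. At Cdc42ep4 it was 16.2 and 9.16, a ratio of 0.566, the lowest of the 13, and 14.4% of shared peaks had a lower one. At the distal region at +350 kb it was 10.3 and 7.93, and at +829 kb 12.4 and 9.27. With 1 library per genotype these ratios have no replicate check, and depth cannot be told apart from genotype.

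**Figure D5:**
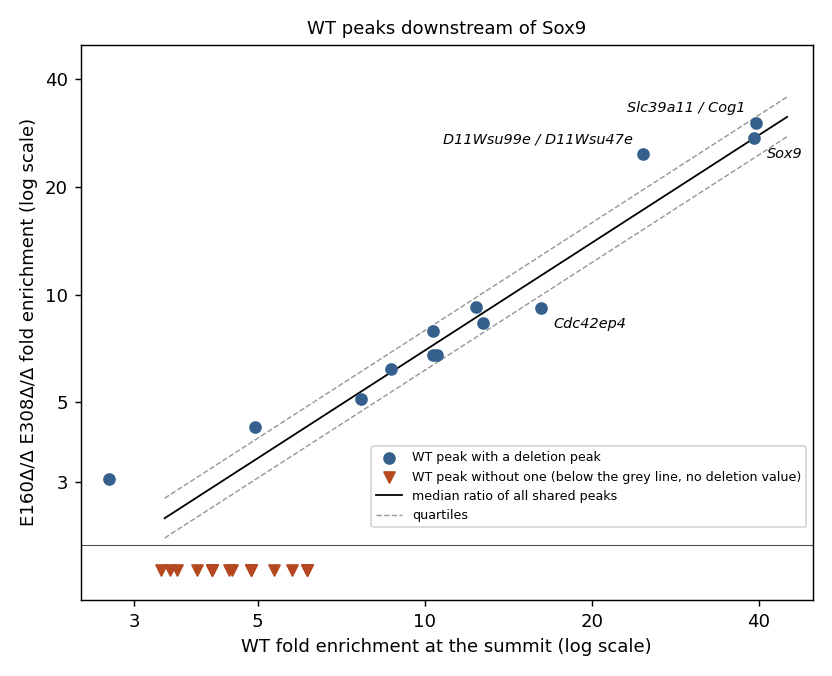
Fold enrichment at the summit of the 30 WT peaks downstream of Sox9 (x axis, WT; y axis, E160Δ/Δ E308Δ/Δ; both log scales); circles are the 13 peaks kept, triangles under the grey line the 17 without a deletion peak, and the lines the median ratio of all shared peaks (0.698) and its quartiles. Sox9 lies on the median line, D11Wsu99e with D11Wsu47e above and Cdc42ep4 below the quartiles.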

How the data were processed

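H3K27ac and H3K4me2 ChIP-Seq peak lists of mouse primary chondrocytes and dermal fibroblasts were used as deposited. Per the study's methods and the submitters' processing notes, the authors cleaned reads with fastp, mapped them to mm9 with Bowtie2 (2.4.4) and called peaks per library with MACS2 (2.2.4) against input. The deposited score of each peak ranked it within its own list, and scores were not compared between lists. The fold enrichment at the summit, a deposited ratio to local background, and the −log10 p and −log10 q values that the authors' caller gave were present in 3 lists (replicate 2, WT and E160Δ/Δ E308Δ/Δ). The other 3 lists hold a score alone, in another format, so that their caller or its version may differ. Depth is unknown.

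Replicate 2 matched GRCm38 gene starts and the other 5 lists mm9 starts, so replicate 2 was matched by distance from the nearest member TSS within 1 kb, and 1 peak could match 2 adjacent regions. For the whole replicate 2 list, the nearest start of a coding gene matched between the builds by symbol or synonym served in place of the member TSS. Gene positions came from GENCODE vM1 (mm9) and RefSeq (GRCm38), with 18089 coding genes of the same symbol in both as background. An overlap of 1 bp counted as shared. Shares have exact binomial (Clopper-Pearson) 95% intervals that treat peaks as independent. No test between groups was run.

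Promoter sequences came from RefSeq, which matched 3 of the 4 members, and distal sequences from the mm9 genome. Regions named were those with H3K27ac in at least 2 of the 3 mm9 chondrocyte lists, or in fibroblasts alone, and those at member promoters. Also named were regions at promoters of neighbouring genes, at the inner Slc39a11 start, upstream of Kcnj16 and at the first peak beyond Sox9. The region at +371 kb was named after its values were seen. Other regions are given by counts. The genes, regions and lists were chosen with earlier results of these data known. Overlaps were tested on simulated lists and were equal to bedtools 2.31.1. The scripts ran in Python 3.11.15 with pandas 2.3.3, numpy 2.4.6, matplotlib 3.10.9 and scipy 1.17.1.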

Additional observations from a re-analysis of the deposited data

How the results depend on the processing

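Of 97 alternatives over 23 results, 72 left the value within the spread allowed for it, while 25 moved it further, and some changed an order or a majority. When the lower-scoring 50% of every list was dropped, the downstream interval held 9.5 (mean of the replicates), 11 (WT), 7 (E160Δ/Δ E308Δ/Δ), 5 (fibroblast) and 24 (H3K4me2) peaks, the covered share was 1.48% (mean of the replicates) and 4.79% (H3K4me2), and 36.4% of WT peaks lacked a deletion peak. With equal numbers of highest-scoring peaks, WT held 11 peaks, E160Δ/Δ E308Δ/Δ 12, fibroblasts 10, the mean of the replicates 21 and H3K4me2 14, the last over 3.59% of the interval, so that WT no longer held more than the deletion list. The WT share without a deletion peak was then 0%, the replicate 1 share with H3K4me2 61.1% and the H3K4me2 share without H3K27ac 40%. With peaks merged, WT held 19 and the share lost was 36.8%. With the interval ending at 0.5 Mb, the counts were 12.5, 14, 9, 3 and 40 in the order above, and fibroblast coverage was 0.447%. With 50% reciprocal overlap, 86.4% of replicate 1 peaks lacked a fibroblast peak, 27.3% had H3K4me2 and 83.8% of H3K4me2 peaks lacked H3K27ac. For the shares under these alternatives no whole-list share is given. Counting any annotated transcript start, an alternative chosen after seeing the data, left 13 of the 24 pairs of member and list marked. In the single lists, 43.1% to 66.3% of all coding promoters were marked at their main start. Leaving out replicate 1 or 2 gave 11 to 12 marked pairs, out of fewer pairs because the pairs of that list were dropped. It also gave 22 to 27 peaks on 2.08% to 2.49% of the interval. The regions acetylated in every chondrocyte list were then 9 to 12, a result also chosen after seeing the data. With WT in place of replicate 1, the share without a fibroblast peak was 70.0%, that with H3K4me2 80.0% and the H3K4me2 share without H3K27ac 72.1%. No paired analysis was possible because replicate numbers occur in 1 group only and no test was run. Peak lists without read numbers limit every value: a missing peak means that none passed the caller's threshold, not that the mark is absent.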
